A study of Mus musculus with 6 samples.

Results

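The genes described here were 10 Eph receptor genes, Epha1, Epha2, Epha3, Epha4, Epha5, Epha7, Ephb2, Ephb3, Ephb4 and Ephb6, found among the 56953 genes of the deposited table by matching each Ensembl identifier to its GENCODE symbol. Their RNA was compared between 3 libraries labelled WT and 3 labelled GαqKO, all from mouse embryonic fibroblasts, or MEFs, cultured connective tissue cells of embryonic origin. The GαqKO cells lack the α subunits of the heterotrimeric G proteins Gq and G11 by the study's description, and the WT cells carry neither deletion. Both were grown in the same serum-containing medium with no further treatment given in the labels, and the study describes a single MEF source per genotype, so that cell line and genotype cannot be told apart. The values were normalized counts, that is reads per gene divided by a single factor for each library, and between 9853000 and 12229175 reads on genes stood behind each of the 5 libraries whose reads could be recovered.

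Eph receptors are receptor tyrosine kinases that are activated by ephrins, ligands that stay attached to the surface of a neighbouring cell. EphA receptors mainly bind the lipid-anchored ephrin-A proteins and EphB receptors mainly bind the transmembrane ephrin-B proteins, with EphA4 known for binding both. Contact can signal into both cells, and in fibroblasts and other migrating cells the pathway is known for repulsion, cell sorting and remodelling of the actin cytoskeleton.

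The labels were checked on the targeted genes first. Gnaq, the gene of Gαq, had 1666, 1660.2 and 1747 normalized counts in WT and 1959.7, 1931 and 1888 in GαqKO. It was thus not reduced under that label but slightly higher (log2 fold change 0.19, adjusted p = 0.00212 from limma). Gna11, the gene of Gα11, fell by 2.25 on the log2 scale. It had 2140.6, 2179.9 and 2123.2 normalized counts in WT and still 472.3, 463.7 and 418.9 in GαqKO. These RNA values alone do not establish the deletions, and directions below follow the labels. Reads summed over a whole gene do not tell which of its exons were transcribed. At the protein level the study reports that Gαq was absent from the GαqKO MEFs by Western blot and immunofluorescence. Of 8 fibroblast markers, 6 had 833.6 normalized counts or more in every library, and the sum of the list was 84198 to 89942 in WT and 60834 to 63969 in GαqKO. Of these markers 5 fell, with Col1a1 at 15324 to 17402 normalized counts in WT and 5461 to 5952 in GαqKO and Fn1 at a log2 fold change of -0.73, and 3 rose. Among the latter, Pdgfra lay at 17.5 to 21.9 normalized counts in WT and 2274 to 2356 in GαqKO, and Thy1 was at 0 in 2 of the 3 WT libraries. The summed level of 6 epithelial markers was 515.1 to 540.8 normalized counts in WT and 10.0 to 23.2 in GαqKO, carried by Cdh1 and Krt14, with Epcam and Krt5 near 0 in both groups. Of the 5 neural markers only Tubb3 reached 10 normalized counts, and the sum was 368.4 to 434.3 in WT and 50.3 to 79.8 in GαqKO, with Sox2 at 0 throughout. In the same way 1 of 5 endothelial, 1 of 4 haematopoietic and 1 of 3 skeletal muscle markers (Pecam1, Cd68 and Des) reached 10 normalized counts in any library. Their sums were 12.6 to 23.4, 88.7 to 103.9 and 10.2 to 18.5 in WT and 15.0 to 25.5, 59.2 to 89.1 and 10.4 to 16.1 in GαqKO, with Tie1, Ptprc and Myog at or near 0. In bulk samples fewer cells of a type and less RNA per cell cannot be told apart, and the part of these marker differences in the receptor values below was not tested.

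Of the 5 EphA genes tested 4 fell in GαqKO, and the 4 EphB genes moved in both directions. Each gene was tested with limma on log2(normalized count + 1), and a gene is said to have risen or fallen where its Benjamini-Hochberg adjusted p over the 14096 genes tested was under 0.05. Among the 9 members tested, 6 fell and 2 rose, beside 34.1% and 31.8% of all genes tested. With the study's further threshold of a log2 fold change beyond 1 in size, 3 members were lower (Epha3, Epha4 and Epha7) and 0 were higher, beside 10.5% and 10.2% of all genes tested. The count of 0 was also found with edgeR and with DESeq2, while 2 members were higher at an unadjusted p under 0.05 in limma. The median log2 fold change was -0.86 over the 9 members, -2.69 over the 5 EphA genes and -0.14 over the 4 EphB genes, and it was -0.01 over all genes tested. Epha3 and Epha7 entered the test through their WT libraries alone, and Epha1 was under the filter of 10 normalized counts in 3 libraries, so these counts and medians are descriptions.

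**Figure D1:**
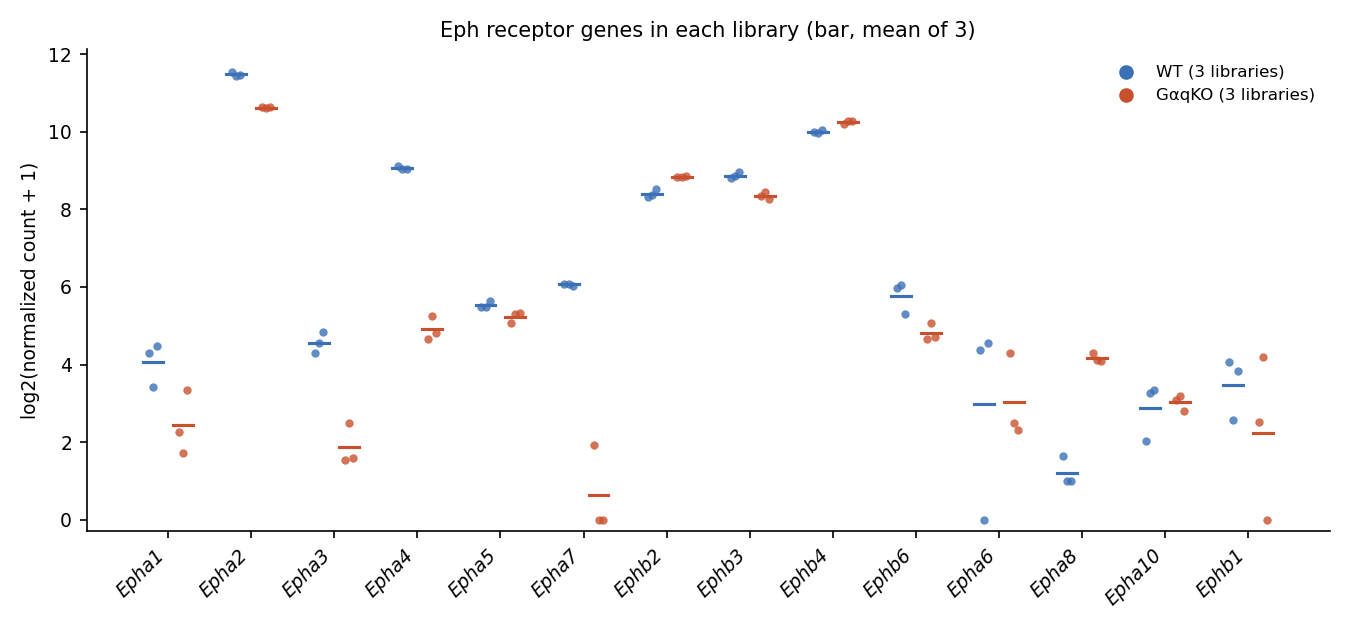
Level of each Eph receptor gene on a log2(normalized count + 1) axis, with the 10 members on the left and the 4 other Eph receptor genes on the right. Points are single libraries (3 WT in blue, 3 GαqKO in orange) and bars are their means; Epha4 and Epha7 show the widest gaps between the groups, and Epha8 is the gene higher in every GαqKO library from a level near 1 in WT.

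Epha4, Epha7 and Epha3 had the lowest fold changes, and Epha2 was the most abundant receptor in both groups. The DNA just upstream of these 4 genes is shown so that the promoter regions of the receptors that fell together can be compared. The sequences are from RefSeq, whose table is on GRCm38.p6, and each was found once in GRCm39, whose coordinates are given. They run from 250 bases before the RefSeq start up to that start or to the first base annotated as an exon of the gene, read in the direction of transcription, with CpG pairs in capitals. The Epha4 stretch lies in an intron of a longer annotated form of Epha4, and part of it lies in an exon of the non-coding gene Gm28386.
Epha4 (chr1:77491735-77491975, minus strand): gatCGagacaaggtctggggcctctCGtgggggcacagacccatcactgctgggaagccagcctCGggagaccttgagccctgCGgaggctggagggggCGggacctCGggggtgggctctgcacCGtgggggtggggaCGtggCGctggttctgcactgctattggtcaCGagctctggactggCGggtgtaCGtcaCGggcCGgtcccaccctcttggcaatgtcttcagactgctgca
Epha7 (chr4:28812881-28813033, plus strand): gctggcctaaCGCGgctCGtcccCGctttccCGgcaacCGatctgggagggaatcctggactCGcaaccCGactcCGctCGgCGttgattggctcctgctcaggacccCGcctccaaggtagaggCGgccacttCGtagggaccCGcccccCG
Epha3 (chr16:63684539-63684788, minus strand): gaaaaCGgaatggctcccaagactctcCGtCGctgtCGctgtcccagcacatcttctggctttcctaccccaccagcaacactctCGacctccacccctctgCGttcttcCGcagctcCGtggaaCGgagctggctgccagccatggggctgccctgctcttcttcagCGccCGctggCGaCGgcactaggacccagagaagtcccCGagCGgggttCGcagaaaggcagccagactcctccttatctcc
Epha2 (chr4:141028282-141028531, plus strand): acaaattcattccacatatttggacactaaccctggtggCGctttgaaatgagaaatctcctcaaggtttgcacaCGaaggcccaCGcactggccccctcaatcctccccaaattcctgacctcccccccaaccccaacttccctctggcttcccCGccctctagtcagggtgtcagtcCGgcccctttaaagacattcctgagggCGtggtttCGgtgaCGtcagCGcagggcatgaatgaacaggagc
Over the whole 250 bases before the start there were 14 CpG pairs for Epha4, 25 for Epha7, 16 for Epha3 and 9 for Epha2, against a median of 6 over 27025 RefSeq promoters of the same length. As many CpG pairs or more were found in 29.6%, 10.3%, 25.6% and 40.7% of those promoters. Across the 10 members the number ran from 9 to 27, and Ephb6, at 27, had the most. The letters GGGCGG on either strand, the core of a GC box, occurred before 8 of the 10 members and in 32.9% of all promoters, and TATAAA on either strand occurred before 0 members and in 13.0% of all promoters. GGGCGG also occurred before the receptor genes Epha6, Epha8 and Epha10 and the ephrin genes Efna1, Efna2, Efna3, Efna5 and Efnb2. It was absent before Ephb1, Efna4 and Efnb1. Epha8 had 46 CpG pairs, a number reached by 0.3% of all promoters. Before Ephb2 and Ephb4, the members that rose, there were 20 and 12 CpG pairs, a number reached by 17.7% and 33.8% of all promoters. A letter match does not show that a factor binds.

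Epha4 (ENSMUSG00000026235.15, chromosome 1, 77343822 to 77492816, minus strand), whose receptor binds ephrins of both classes, went from a well expressed gene to a low one. Its normalized counts were 554.5, 523.6 and 523.2 in the WT libraries and 24.4, 37.0 and 27.2 in the GαqKO libraries. The lowest WT library was thus far above the highest GαqKO library. The means were 533.7 ± 17.9 and 29.53 ± 6.61 (SD, n = 3 each), an 18.1-fold difference, and the log2 fold change was -4.15 (SE, the standard error, 0.154; limma adjusted p = 3.32e-11).

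Epha7 (ENSMUSG00000028289.13, chromosome 4, 28813034 to 28967507, plus strand), a receptor best known from axon guidance and early brain development, was nearly undetected in GαqKO. Its normalized counts were 66.8, 67.0 and 64.1 in WT and 2.8, 0 and 0 in GαqKO. Epha7 passed the filter through its WT libraries alone, so the p and rank that follow are descriptions. Its log2 fold change of -5.42 (SE 0.505, limma adjusted p = 4.51e-07) placed it at rank 181 from the most negative of the 14096 genes. Because GαqKO was at the floor of 3 reads, that fitted value depends on the pseudocount. It was -6.145 with a pseudocount of 0.5 and -3.61 with a pseudocount of 5, and it was -6.07 without GαqKO replicate 1. From the recovered reads, 196 in 3 WT and 3 in 2 GαqKO libraries, the ratio of WT to GαqKO was 42.5 with a 95% counting interval from 14.3 to 208, which covers counting error only.

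Epha3 (ENSMUSG00000052504.8, chromosome 16, 63363897 to 63684538, minus strand), a receptor for ephrin-A5 found in mesenchymal cells, was low in WT and lower in GαqKO. It had 18.8, 22.3 and 27.5 normalized counts in WT and 1.9, 4.6 and 2.0 in GαqKO. No GαqKO library reached the lowest WT library, and the log2 fold change was -2.69 (SE 0.418, limma adjusted p = 6.65e-05). Epha3 also passed the filter through its WT libraries alone, so this p is a description. The recovered reads, 68 in 3 WT and 6 in 2 GαqKO libraries, gave a ratio of WT to GαqKO of 7.37 with a 95% counting interval from 3.21 to 20.8.

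Epha2 (ENSMUSG00000006445.4, chromosome 4, 141028540 to 141056695, plus strand), a receptor widely expressed in epithelial and other dividing cells, had the highest level of the family. Its normalized counts were 3002, 2794 and 2815 in WT and 1584, 1557.5 and 1588 in GαqKO. The 3 libraries of each group lay close together and the groups did not overlap. The mean was 1.82-fold higher in WT and the log2 fold change was -0.86 (limma adjusted p = 1.04e-09, SE 0.045), which does not reach the threshold of -1. Genes of chromosome 4 had a median log2 fold change of -0.355, and relative to it Epha2 was at -0.51.

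Epha5 and Epha1 were the other EphA members. Epha5 (ENSMUSG00000029245.17, chromosome 5, 84202620 to 84565348, minus strand), a mainly neuronal receptor, had 43.9, 43.7 and 48.9 normalized counts in WT and 32.9, 38.2 and 39.3 in GαqKO. Its groups did not overlap, but its log2 fold change of -0.30 had a 95% interval from -0.75 to 0.14 and an adjusted p of 0.214 from limma (0.0304 without the trend in the prior spread). Epha1 (ENSMUSG00000029859.7, chromosome 6, 42335406 to 42350208, minus strand), known from epithelia, had 18.8, 9.7 and 21.4 normalized counts in WT and 3.8, 2.3 and 9.1 in GαqKO and was not tested with the filter. Without the filter its log2 fold change was -1.64 (95% interval -2.77 to -0.50, adjusted p = 0.0211 from limma). Of its exon bases, 36.9% lie within exons of Zyx on the opposite strand, an abundant gene at 2980 ± 144 and 2274 ± 75.9 normalized counts (SD, n = 3 each), and the strand setting of the counting is not given in the sources used here.

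Among the EphB receptors, Ephb2 and Ephb4 rose slightly and Ephb3 and Ephb6 fell. Ephb4 (ENSMUSG00000029710.16, chromosome 5, 137348274 to 137376931, plus strand), the receptor for ephrin-B2 in vein and artery formation, had 1015, 1007.4 and 1064 normalized counts in WT and 1169, 1245 and 1246 in GαqKO. This was a log2 fold change of 0.25 (SE 0.051, limma adjusted p = 8.28e-04), with every GαqKO library above every WT library. Ephb2 (ENSMUSG00000028664.15, chromosome 4, 136374850 to 136563351, minus strand), a receptor studied in intestinal crypts and at synapses, had 320.6, 328.3 and 368.5 normalized counts in WT and 458.2, 459.0 and 462.2 in GαqKO. The log2 fold change was 0.44 (SE 0.076, limma adjusted p = 1.72e-04), and 0.80 relative to the median of the genes of chromosome 4.

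Ephb3 (ENSMUSG00000005958.16, chromosome 16, 21023495 to 21042057, plus strand), which acts with Ephb2 in intestinal cell positioning, moved the other way from it. Its normalized counts were 445.9, 463.4 and 494.7 in WT and 326.8, 348.0 and 306.1 in GαqKO, without overlap, and the log2 fold change was -0.52 (SE 0.078, limma adjusted p = 5.30e-05), or -0.33 relative to the median of the genes of chromosome 16. Ephb6 (ENSMUSG00000029869.8, chromosome 6, 41581983 to 41600264, plus strand), whose kinase domain is inactive, had 61.6, 65.1 and 38.7 normalized counts in WT and 24.4, 32.4 and 25.2 in GαqKO. The third WT library was the nearest to the GαqKO libraries and still above them. The log2 fold change was -0.96 (SE 0.252, limma adjusted p = 0.00411), which passed -1 without WT replicate 3 (-1.19) or GαqKO replicate 2 (-1.09), and with DESeq2 on the 5 libraries with recovered reads its adjusted p was 0.0538. Of its exon bases, 14.7% lie within exons of Trpv6, which had at most 4.9 normalized counts in any library.

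**Figure D2:**
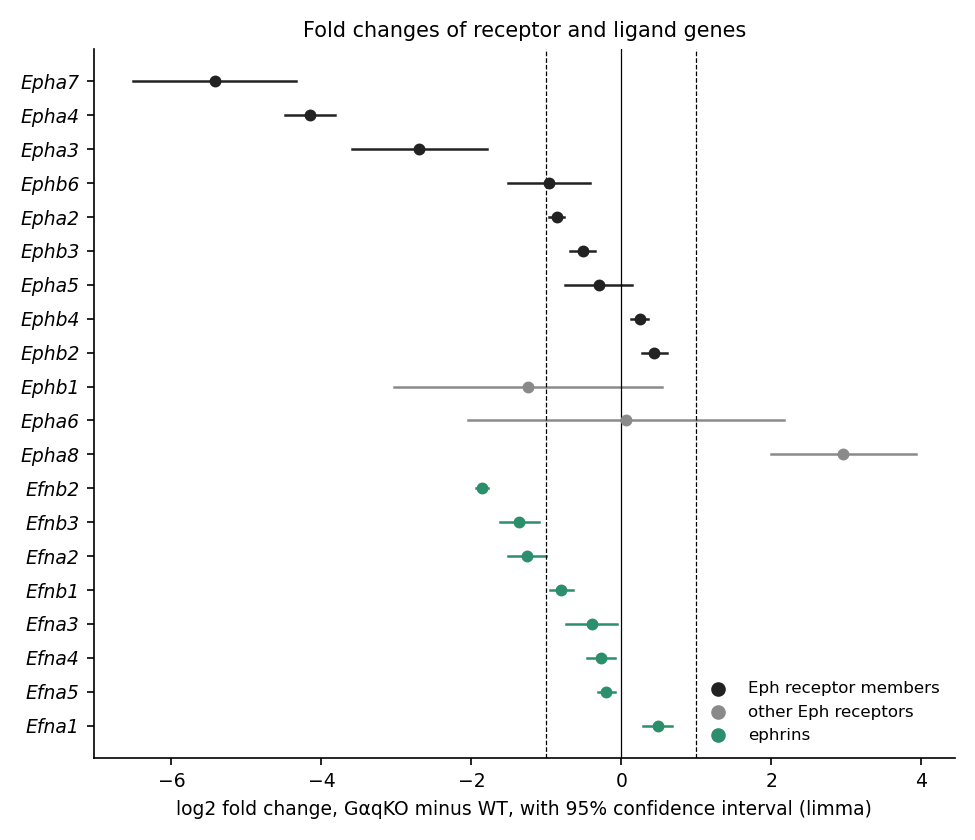
Log2 fold change of GαqKO against WT for the 9 tested members (black), 3 other tested Eph receptors (grey) and 8 ephrins (green), each with its 95% confidence interval from limma. Dashed lines mark -1 and 1; Epha7, Epha4 and Epha3 lie beyond -1 with their whole intervals, and Ephb2 and Ephb4 are the members above 0.

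Levels can be compared between genes only per length, so the normalized counts were divided by the kilobases of annotated exon of each gene. Reads over exon junctions are mostly lost in these data, and that loss can differ between genes. Division by length does not correct for it, so levels of different genes compare only roughly. In WT the order from high to low was Epha2 (613 ± 24.4 normalized counts per kilobase), Ephb4 (205 ± 6.08), Ephb3 (67.6 ± 3.57), Epha4 (64.8 ± 2.18) and Ephb2 (26.8 ± 2.03; SD, n = 3 each). The other 5 members followed from 7.3 for Ephb6 through Epha7, Epha1 and Epha3 to 2.2 for Epha5, and each of these overlapped its neighbours in that order between libraries. Ephb3 and Epha4 also overlapped. In GαqKO the order began with Epha2 (337 ± 3.56), Ephb4 (243 ± 8.78), Ephb3 (47.2 ± 3.03) and Ephb2 (36.3 ± 0.167; SD, n = 3 each), with no overlap between neighbours. Epha4, at 3.58 ± 0.802 normalized counts per kilobase, had moved to the sixth place beside Ephb6 at 3.62 ± 0.581, with which it overlapped. Below Epha2 and Ephb4 the order depends on the length used. Per kilobase of coding sequence, Epha4 (176) was above Ephb3 (147) in WT, and Epha5 (12.9) was above Epha3 (7.44) and Epha1 (5.47). In GαqKO, Ephb2 (155) was above Ephb3 (103) on that measure.

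The summed level of the 10 members was 1022, 974.2 and 997.6 normalized counts per kilobase in WT and 663.4, 678.5 and 678.7 in GαqKO. The EphA sum was 2.01-fold higher in WT (691.6 ± 26.9 against 343.5 ± 3.48; SD, n = 3 each), while the EphB sum was 306.4 ± 9.56 in WT and 330.0 ± 9.85 in GαqKO. EphA genes made up 70.7%, 69.0% and 68.2% of the summed level in WT and 51.9%, 50.1% and 51.1% in GαqKO. Epha2 supplied most of this change in level, and Epha4 went from 6.49% to 0.532% of the sum. Ephb4 went from 20.5% to 36.0% of a smaller sum, while its own level per kilobase went from 205 to 243. The ratio of EphA to EphB RNA was 2.26 ± 0.137 in WT and 1.04 ± 0.04 in GαqKO (SD, n = 3 each). With coding length in place of exon length the EphA share was 66.5% and 46.2%. These sums rest on members chosen with results known and were not tested.

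**Figure D3:**
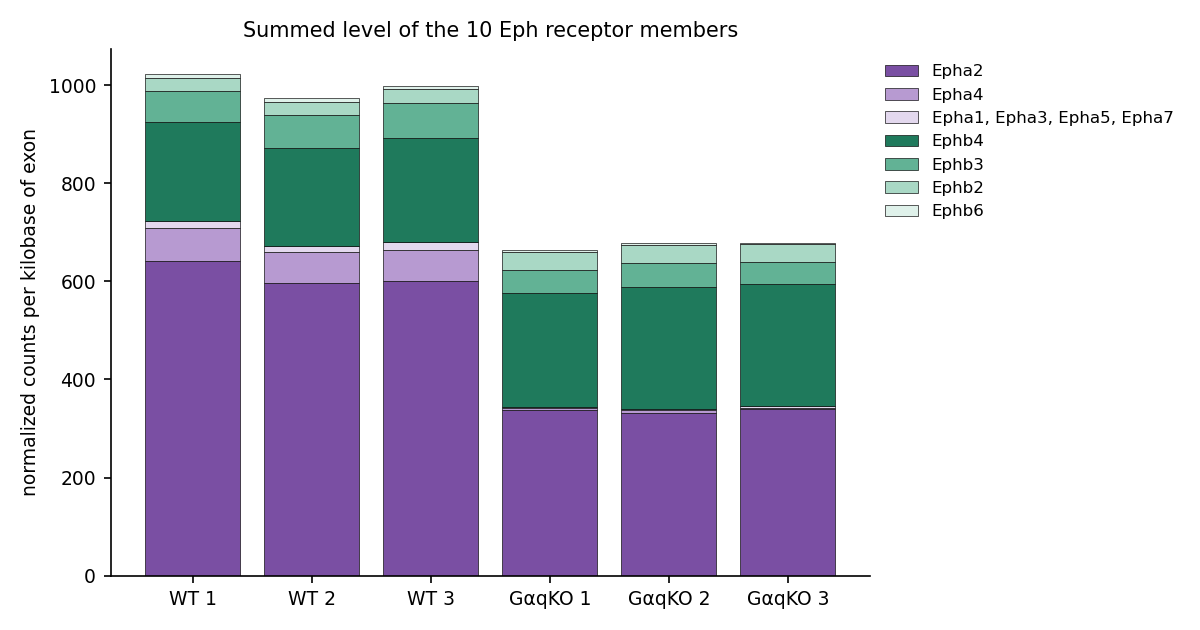
Stacked level of the 10 members in each library, in normalized counts per kilobase of exon, with EphA genes in purple and EphB genes in green. The WT bars reach 974.2 to 1022 and the GαqKO bars 663.4 to 678.7, and the purple part shrinks while the green part stays near its WT height.

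The 4 other Eph receptor genes were near the limit of detection. Epha8, a receptor of the developing midbrain, had 2.1, 1.0 and 1.0 normalized counts in WT and 18.8, 16.2 and 16.1 in GαqKO. Its log2 fold change was 2.96 (SE 0.447, limma adjusted p = 5.06e-05). It passed the filter through GαqKO alone, so this p is a description. Its recovered reads, 4 in 3 WT and 34 in 2 GαqKO libraries, gave a ratio of GαqKO to WT of 13.1 with a 95% counting interval from 4.66 to 50.7. It lies on chromosome 4, from 136656730 to 136684202, the chromosome that also holds Epha2, Epha7 and Ephb2.

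Epha6 had 19.8, 0 and 22.4 normalized counts in WT and 18.8, 4.6 and 4.0 in GαqKO, and Ephb1 had 15.7, 4.9 and 13.2 in WT and 4.7, 17.3 and 0 in GαqKO. In both genes the libraries of a group differed by more than the groups did, with adjusted p of 0.957 and 0.203 from limma. For Ephb1 the log2 fold change of -1.24 became -2.225 without GαqKO replicate 2 (limma adjusted p = 0.0253), -0.13 without GαqKO replicate 3 and -0.07 with edgeR. Epha10, whose kinase is inactive, had between 3.1 and 9.2 normalized counts in all 6 libraries and was not tested. The longest run of bases shared by the annotated transcripts of any pair of the 14 receptor genes was 49, shorter than a read of 150 bases.

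The ephrin genes, which encode the ligands, were mostly lower in GαqKO, and the ephrin-B class more so in summed level. All 8 were tested, 7 fell and 1 rose, and 3 were lower past both thresholds (Efna2, Efnb2 and Efnb3), with a median log2 fold change of -0.60. Over all genes tested 34.1% fell, 31.8% rose and 10.5% were lower past both thresholds. Efnb2, the ephrin-B2 gene, was the most abundant, with 6170, 6216 and 6138 normalized counts in WT and 1686, 1722 and 1702 in GαqKO. This was a 3.63-fold difference between groups that lay far apart, at a log2 fold change of -1.86 (SE 0.039, limma adjusted p = 1.44e-13). Ephb4, its main receptor, was higher in the same libraries.

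Efnb3 had 286.1, 276.9 and 325.7 normalized counts in WT and 100.5, 129.5 and 114.8 in GαqKO (log2 fold change -1.36, adjusted p = 2.74e-07 from limma). Efnb1 had 614, 640.2 and 617.8 in WT and 353.1, 383.9 and 339.4 in GαqKO (log2 fold change -0.80, adjusted p = 2.43e-07 from limma, and -0.53 relative to the median of the X chromosome). All 3 ephrin-B genes thus fell. Their summed level was 1093 ± 5.29 normalized counts per kilobase in WT and 357.8 ± 11.3 in GαqKO (SD, n = 3 each), a 3.05-fold difference, and Efnb2 made up 78.0% of it in WT and 65.7% in GαqKO.

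The ephrin-A genes changed less in sum, from 751.8 ± 34.6 to 592.5 ± 27.1 normalized counts per kilobase (SD, n = 3 each). Efna2 fell from 448.0, 524.6 and 432.6 normalized counts in WT to 163.4, 227.8 and 198.4 in GαqKO, a log2 fold change of -1.26 (SE 0.118, limma adjusted p = 5.09e-07) that was -0.975 relative to the median of the genes of chromosome 10. Efna1, a preferred ligand of EphA2, was the ephrin that rose, from 359.2, 339.0 and 281.9 to 457.3, 441.7 and 468.3 normalized counts (log2 fold change 0.49, adjusted p = 3.39e-04 from limma). Every GαqKO library exceeded every WT library for Efna1, and relative to the median of the genes of chromosome 3 its log2 fold change was 0.16. Efna3, Efna4 and Efna5 had log2 fold changes of -0.40, -0.27 and -0.20, with adjusted p of 0.04, 0.0164 and 0.0041 from limma, which for Efna3 and Efna4 became -0.72 and -0.60 relative to the median of chromosome 3. The call of Efna3 was lost with edgeR, with DESeq2, without the filter, and without WT replicate 2 (-0.25) or any 1 GαqKO library (-0.375 to -0.43). The calls of Efna4 and Efna5 were lost with DESeq2, and that of Efna4 also without WT replicate 1 (-0.22) or GαqKO replicate 1 (-0.20). Exons of other genes cover 30.65% of the exon bases of Efna3, 10.25% of those of Efna4 and 10.27% of those of Efnb2.

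**Figure D4:**
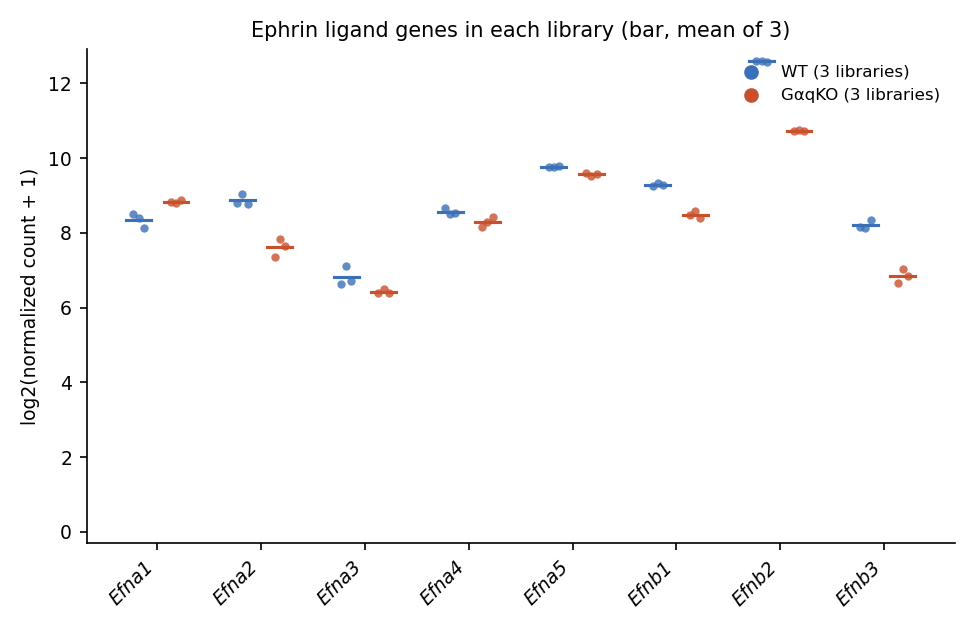
Level of the 8 ephrin genes on a log2(normalized count + 1) axis. Points are single libraries (3 WT in blue, 3 GαqKO in orange) and bars are their means; Efnb2 stands highest, at 6138 to 6216 normalized counts in WT and 1686 to 1722 in GαqKO, and Efna1 is the gene whose GαqKO libraries lie above WT.

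Of 61 genes listed as signalling partners of Eph receptors or ephrins, 55 were tested, 15 rose, 29 fell and 11 did neither. Past both thresholds 4 were higher and 6 lower, and the median log2 fold change was -0.15. Beside 31.8% higher and 34.1% lower by adjusted p, and 10.2% and 10.5% past both thresholds, over all genes tested, the counts past both thresholds were near the background, so they are no result about the partners as a group and the genes are described singly. Ngef, or ephexin-1, an exchange factor that acts downstream of EphA4, had 24.0, 21.4 and 33.6 normalized counts in WT and 289.2, 315.7 and 353.5 in GαqKO. Its log2 fold change was 3.57 (SE 0.179, limma adjusted p = 7.33e-10), opposite in direction to that of Epha4 in the same libraries.

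Arhgef15, the related ephexin-5 that binds EphB2, had 31.3, 39.8 and 44.8 normalized counts in WT and 80.8, 77.5 and 79.6 in GαqKO (log2 fold change 1.03, adjusted p = 3.39e-04 from limma). Kalrn, an exchange factor for Rac1 that acts downstream of EphB receptors, had 106.5, 94.2 and 109.9 in WT and 210.3, 205.8 and 210.5 in GαqKO (log2 fold change 1.01, adjusted p = 4.03e-06 from limma). Anks1b, a member of the Odin family of adaptors, had 35.5, 13.6 and 41.7 in WT and 108.0, 134.1 and 106.7 in GαqKO (log2 fold change 2.04, adjusted p = 7.87e-05 from limma). Arhgef15 and Kalrn lay just beyond the threshold of 1 and fell short of it without WT replicate 1 (0.89) and without WT replicate 2 (0.94), respectively. Both also fell short of it with a pseudocount of 5 (0.96 and 0.98).

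The 6 lower genes were a kinase of the Src family, adaptors, and regulators or effectors of Rac. Fyn, which phosphorylates ephrin-B proteins and acts with EphA receptors, had 343.5, 308.9 and 376.6 normalized counts in WT and 110.8, 82.1 and 92.6 in GαqKO (log2 fold change -1.85, adjusted p = 2.38e-08 from limma). The adaptor gene Grb10 was the most abundant of the 6, at 7678, 8063 and 8307 in WT and 2343, 2375 and 2276 in GαqKO (log2 fold change -1.78, adjusted p = 5.98e-13 from limma). Grip1, a PDZ adaptor of ephrin-B proteins, had 57.4, 43.7 and 51.9 in WT and 12.2, 32.4 and 6.0 in GαqKO (log2 fold change -1.83, adjusted p = 0.0022 from limma). The second GαqKO library of Grip1 was the nearest to WT, and the log2 fold change was -2.42 without it, -1.30 without the third, and -1.23 with edgeR and -1.21 with DESeq2.

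Pak1, a kinase activated by Rac1 and Cdc42, went from 612.8 ± 46.6 to 256.7 ± 10.2 normalized counts, and Chn2, a GTPase-activating protein for Rac, from 126.4 ± 12.5 to 56.71 ± 3.96 (SD, n = 3 each). Pik3r1, a regulatory subunit of phosphoinositide 3-kinase, went from 1049 ± 71.8 to 505.4 ± 17.0. Their log2 fold changes were -1.25, -1.14 and -1.05, with adjusted p of 7.98e-09, 1.80e-05 and 5.40e-09 from limma. The 4 most abundant partners that did not pass both thresholds were Ptpn11, a phosphatase, the adaptor Crk, and the GTPases Cdc42 and Rac1. Their log2 fold changes were -0.41, -0.17, -0.60 and -0.14, and each fell at an adjusted p under 0.05, with Crk and Cdc42 at -0.06 and -0.25 relative to their chromosomes' medians. With 56.1% of the exon bases of Rac1 inside exons of other genes, its value is uncertain.

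**Figure D5:**
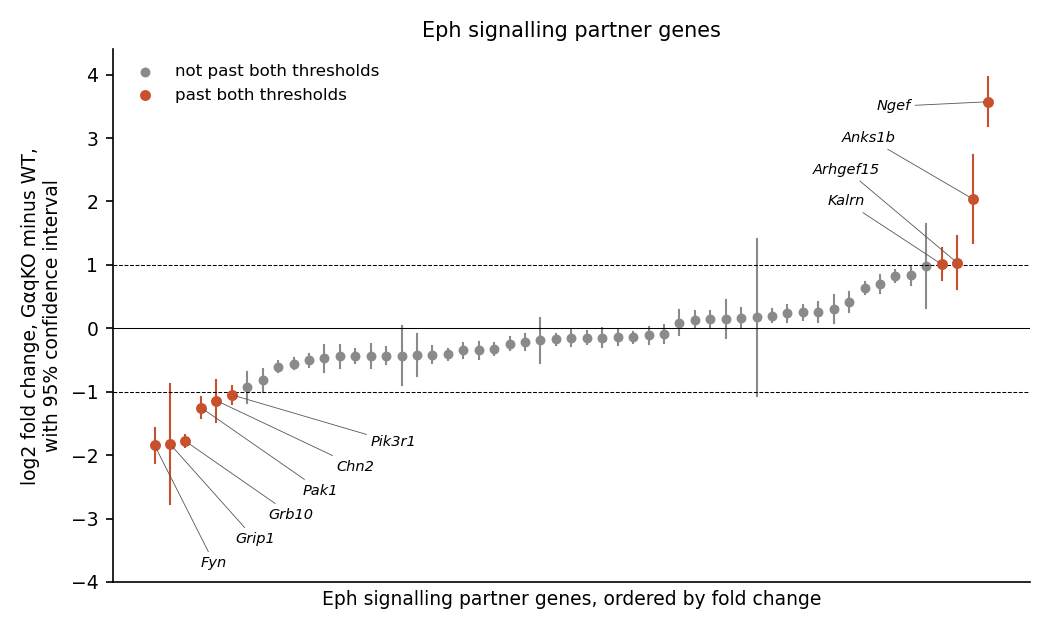
Log2 fold change of GαqKO against WT with 95% confidence intervals for the 55 tested signalling partner genes, in order of fold change. Orange points are the 10 genes past both thresholds, and dashed lines mark -1 and 1; Ngef, at 3.57, stands highest and Fyn, at -1.85, lowest.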

How the data were processed

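RNA of WT and GαqKO MEFs (n = 3 libraries each, stated by the study to be biological replicates) was sequenced after poly-A selection as pairs of 150 bases. Alignment by the authors was to GRCm39 with Rbowtie2, which does not split reads across introns, so that reads over exon junctions are mostly lost. They counted reads with featureCounts on GENCODE release 32 and used DESeq2. The versions and the strand setting are not given in the sources used here. The deposited values are a signal, namely normalized counts (reads divided by 1 factor per library). Nonzero values of 5 libraries were whole multiples of 1 read in 100% of cases (tolerance 0.1). The reads of GαqKO replicate 3 were not used, so count tests ran on 5 libraries.

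Symbols and coordinates came from GENCODE release 39 (GRCm39), which matched 56310 of 56953 identifiers. Genes reaching 10 normalized counts in 3 or more libraries were tested with limma 3.58.1 in R 4.3.3, with a trend in the prior spread, a pseudocount of 1 and Benjamini-Hochberg adjustment. The added pseudocount shrinks the ratios of low counts. A fitted value is a difference of mean logs, so with uneven libraries it can depart from the ratio of the means in either direction. Epha6, for example, had means of 14.08 in WT and 9.145 in GαqKO but a fitted value of 0.07. An exact permutation test of 3 against 3 libraries cannot give a p under 0.1 and was not used. The p-values measure the spread between libraries of a single line per genotype. Replicates differed by more than counting noise and each was counted. Alternatives were another pseudocount (0.5 or 5), no filter, a filter in every library, TMM scaling, a replicate block, no trend, limma's treat, edgeR 4.0.16, DESeq2 1.42.0, each library left out and, chosen after seeing the data, removal of the chromosome's median. The code was tested on simulated data. Figures were drawn with matplotlib 3.10.9 in Python 3.11.15.

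The members, lists and tests were chosen with earlier results of these data known. The text names the 10 members, the 4 other Eph receptors and the 8 ephrins. It names the partners past both thresholds and the 4 most abundant partners not past them. It also names the targeted genes, the markers, and Zyx, Trpv6 and Gm28386, whose exons overlap a member's. Exons of genes not named here cover 8.54% of the exon bases of Epha2, 5.02% of Ephb2, 1.55% of Ephb4 and 0.16% of Epha5. RefSeq promoters matched 10 of 10 members and 7 of 8 ephrins.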

Additional observations from a re-analysis of the deposited data

How the results depend on the processing

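The 3 members lower past both thresholds became 1 (Epha4) when 10 normalized counts were required in every library, which leaves Epha3 and Epha7 untested because they are low in GαqKO. Leaving out each library gave 3 to 5 such members, with 5 without GαqKO replicate 2, where Epha1 and Ephb6 also passed (2 libraries are then enough for the filter). No filter, edgeR and DESeq2 gave 4, with Epha1 added, and removing the chromosome medians gave 4, with Ephb6 added. No setting gave a member higher past both thresholds. The replicate numbers did not pair the libraries (correlations of same-numbered deviations -0.045, -0.148 and -0.064), and the replicate block gave 3 lower and 0 higher members and 10 partners, as without it. The partners past both thresholds numbered 8 with a pseudocount of 5. They numbered 5 with limma's treat, which asks for a change beyond the threshold and not beyond 0. The ephrins past both thresholds numbered 2 (Efnb2 and Efnb3) with treat, and also with the chromosome medians removed. The summed member level per kilobase was 1806 in WT and 1214 in GαqKO with coding length, which is shorter than exon length. The fold change of Epha6, at 0.07, changed sign, to -0.24 with a pseudocount of 5, -0.175 with edgeR and -0.252 with DESeq2, and ran from -1.422 to 0.852 with a library left out (-1.422 without WT replicate 2, which is listed at 0). The cause was not tested for the other settings. Over all genes, the filter in every library gave 831 higher and 765 lower, and treat gave 847 and 1027, against 1432 and 1486. TMM scaling moved the median of all genes from -0.012 to -0.003. Low reads limit Epha1, Epha3, Epha6, Epha7, Epha8, Epha10 and Ephb1.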
